A study of Mus musculus with 4 samples.

Results

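The circadian clock genes examined here are Dbp, Per1, Per2, Per3, Nr1d1, Nr1d2, Arntl (also called Bmal1), Clock, Cry1 and Bhlhe40. They were taken as the probe sets whose annotation names 1 of these 10 genes and no other, which gave 23 of 45101 probe sets on the array. The arrays compared small intestine from mice that lack CFTR, the anion channel mutated in cystic fibrosis (CF), and from wild type (WT) mice, with and without lubiprostone, a bicyclic fatty acid given to stimulate intestinal fluid secretion. The series holds 4 arrays of pooled RNA, with 1 array per group: CF + lubiprostone, a pool of 8 Cftr-null (cftr-tm1Unc) mice gavaged daily for 2 weeks at 10 µg/kg; CF control, a pool of 10 untreated Cftr-null mice; WT + lubiprostone, a pool of 7 wild type mice given the same dose; and WT control, a pool of 10 untreated wild type mice. The methods text gives fewer mice for the WT control pool than the description deposited with the arrays. The labels give the strain of all mice as C57BL/6, and all were fed Peptamen, a liquid diet, and the labels give no age. The null allele was carried in every cell, and the RNA came from the entire small intestine. The time of day of tissue collection is not given in the sources used here, so that a difference in clock phase between pools and a difference of genotype or treatment cannot be told apart. As each group is 1 pool on 1 array, the spread between mice is not known, no test was possible, and every ratio describes these 4 pools.

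The mammalian clock is a transcriptional feedback loop. CLOCK and BMAL1 (the product of Arntl) bind E-box elements and activate the Per, Cry, Nr1d, Dbp and Bhlhe40 genes. PER and CRY proteins then inhibit CLOCK and BMAL1, while REV-ERBα and REV-ERBβ (the products of Nr1d1 and Nr1d2) repress Arntl through sites shared with the ROR receptors. DBP, a PAR bZIP factor, carries the rhythm to further genes through D-box elements. In the gut this loop runs in epithelial and muscle layers and follows the time of feeding. E-box targets such as Dbp and Nr1d1 peak at times of day roughly opposite to that of Arntl, which does not hold for every E-box target.

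Promoter windows are shown for members whose window held the E-box, E'-box or D-box letters. RefSeq (GRCm38.p6) gave 12 windows of 300 bases for 8 of the members, from 250 bases before to 50 bases after a transcription start. Of these, 2 windows held the E-box CACGTG, 2 the E'-box CACGTT, 1 the D-box (TTATGTAA or TTACGTAA) and 4 the ROR half-site AGGTCA, searched on both strands. Among all 32851 windows, 7.15% held the E-box, 4.68% the E'-box, 1.06% the D-box and 16.3% the ROR half-site. These motifs share no letters with each other in the windows printed here. The windows of Per1, Cry1, Nr1d1 and Per3 follow, 5′ to 3′ on the strand of the gene, with the motifs in capitals.
Per1, chr11:69098699-69098998, strand +: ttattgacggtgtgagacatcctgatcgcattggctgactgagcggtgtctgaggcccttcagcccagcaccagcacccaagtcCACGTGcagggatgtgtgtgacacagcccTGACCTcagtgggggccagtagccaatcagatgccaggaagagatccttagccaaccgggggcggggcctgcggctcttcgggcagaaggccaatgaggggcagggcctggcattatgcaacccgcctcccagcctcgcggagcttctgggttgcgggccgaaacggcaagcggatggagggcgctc
Cry1, chr10:85185005-85185304, strand -: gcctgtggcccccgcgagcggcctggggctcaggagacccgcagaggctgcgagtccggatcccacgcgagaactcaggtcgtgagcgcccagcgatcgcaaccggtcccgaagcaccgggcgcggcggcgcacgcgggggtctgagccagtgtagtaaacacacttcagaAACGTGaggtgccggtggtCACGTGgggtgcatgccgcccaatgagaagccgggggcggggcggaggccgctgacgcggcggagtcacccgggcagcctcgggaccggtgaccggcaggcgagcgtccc
Nr1d1, chr11:98775328-98775627, strand -: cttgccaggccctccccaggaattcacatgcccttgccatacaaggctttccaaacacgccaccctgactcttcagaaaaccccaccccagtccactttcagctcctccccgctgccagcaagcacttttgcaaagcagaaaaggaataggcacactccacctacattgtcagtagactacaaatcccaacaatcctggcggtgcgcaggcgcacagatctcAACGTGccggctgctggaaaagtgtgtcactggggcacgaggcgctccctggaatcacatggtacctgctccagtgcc
Per3, chr4:151044616-151044915, strand -: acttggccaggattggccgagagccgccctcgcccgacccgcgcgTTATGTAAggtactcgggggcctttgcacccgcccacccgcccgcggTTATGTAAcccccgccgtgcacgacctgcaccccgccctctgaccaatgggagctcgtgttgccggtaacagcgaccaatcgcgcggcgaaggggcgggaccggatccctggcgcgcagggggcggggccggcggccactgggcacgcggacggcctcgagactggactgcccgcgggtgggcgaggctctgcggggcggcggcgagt
The Per1 window had an E-box 166 bases and a ROR half-site 137 bases before the start. The Cry1 window had an E-box 60 bases and an E'-box 79 bases before the start, and the Nr1d1 window had an E'-box 28 bases before it. Per3 had D-boxes at 205 and 158 bases before the start, and was the only member with a D-box in its window. The ROR half-site also stood in 1 window each of Nr1d2, Arntl and Clock. The window of Dbp held none of these letters, which says nothing of sites elsewhere in the gene.

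Each value is a signal, an intensity in arbitrary units summarizing the probes of 1 probe set, scaled by the authors so that all 4 arrays had the same trimmed mean. The median signal was 119.6 for CF + lubiprostone, 109 for CF control, 123 for WT + lubiprostone and 124 for WT control. Of the 23 clock probe sets, 21 reached the median of at least 1 array and were kept. All 10 genes had a kept probe set. The other two probe sets, both for Per3, lay below the median on every array. Log2 ratios of the kept probe sets of a gene were averaged, and across all genes with several probe sets the median SD of these ratios was 0.24 for CF control over WT control, 0.20 for WT + lubiprostone over WT control, 0.26 for CF + lubiprostone over CF control and 0.23 for CF + lubiprostone over WT + lubiprostone. This is a spread within arrays.

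The tissue markers moved between the pools, and their part in the results was not tested. All 6 measured enterocyte markers of 7 listed lay above the median on every array, with summed signals of 219379, 197562, 246512 and 227578 in CF + lubiprostone, CF control, WT + lubiprostone and WT control. All 6 smooth muscle markers were above WT control in CF control (median log2 ratio 0.54), and 5 of 6 were below CF control in CF + lubiprostone (median -0.55). Their summed signals were 25748, 36848, 28173 and 25085 in the same groups. All 4 measured leukocyte markers were below WT control in CF control (median log2 ratio -0.75), and they summed to 1919, 2218, 2585 and 3294. In each CF pool 2 of the 4 lay below the array's median, Cd3e in both. The 4 measured pancreatic acinar markers summed to 3667, 16213, 1215 and 15460.2, higher in both untreated pools. Of the adipocyte markers, 3 of 5 were measured and summed to 3084, 1816, 1699 and 1765, most of it Fabp4. Adipoq had 1.56, 99.5, 15.3 and 173, and only its WT control signal reached the array's median. In bulk tissue, fewer cells of a type and less RNA per cell cannot be told apart. The pools also differed in Xist, which is transcribed from the inactive X chromosome, with signals of 4062, 2509.8, 3683 and 1036 in its brightest probe set. Eif2s3y, a gene of the Y chromosome, had 804.6, 883.7, 829 and 1242 in its brighter probe set. WT control thus had the lowest Xist and the highest Eif2s3y. Whether the mix of sexes in the pools bears on the clock genes was not tested. Cftr, the targeted gene, had 714.6, 620.3, 2226 and 2505.5 in its brighter probe set, lower in both CF pools.

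In untreated mice, 8 of the 10 clock genes had lower signals in CF mice than in WT mice, with a median log2 ratio of -0.44, while the median over all genes compared was -0.02 and 51.8% of 11806 genes had a ratio below 1 and 48.2% a ratio above 1. Dbp, the Per genes and the Nr1d genes were all lower, Bhlhe40 was higher, and Arntl and Cry1 had log2 ratios of -0.11 and 0.15. At least 2-fold lower was 1 member, Dbp, and 4.84% of all genes were that much lower. None of the members was 2-fold higher, against 2.8% of all genes, and none was 3-fold lower or higher, against 1.82% and 1.16%. Of the 2-fold differences over all genes, 36.7% were higher in CF control, and 54.5% when the arrays were scaled to one median, which moved the median of all genes up by 0.18. Under quantile normalization this share was 47.9%. With arrays scaled to one median 7 members were lower, since Arntl turned to a log2 ratio of 0.07. The comparison with CF + lubiprostone further on uses the same CF control array, and 6 members had their lowest level on that array, where 29.9% of 12259 genes had theirs. The count of 6 was the same with the arrays scaled to one median or quantile normalized, where 17% and 24.5% of all genes had their lowest level in CF control.

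**Figure D1:**
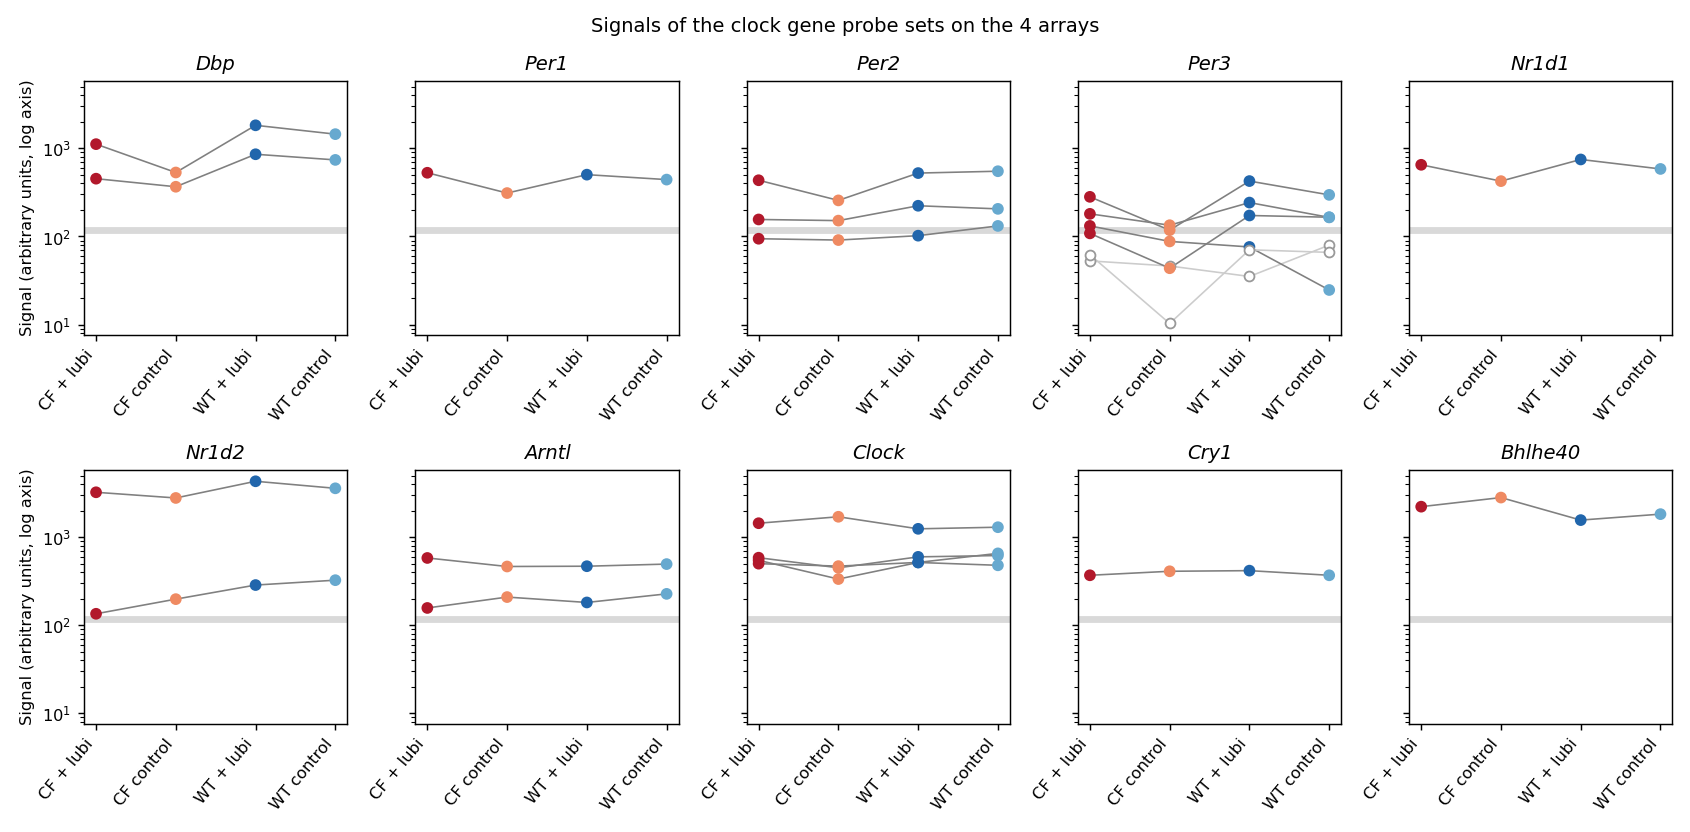
Signals of all 23 clock gene probe sets in arbitrary units on a log axis, each point being the RNA pool of 1 group, lines joining the points of a probe set, open grey circles for the Per3 probe sets that were not kept, with shading between the lowest and highest array median. The CF control pool is the lowest of the 4 for both Dbp probe sets, at 367 and 533, and the highest for Bhlhe40, at 2809.5.

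Dbp had the lowest ratio of the members in untreated mice. Its brighter probe set had signals of 1117 in CF + lubiprostone, 533 in CF control, 1828 in WT + lubiprostone and 1451 in WT control. Its dimmer probe set had 453, 367, 858 and 740.2 in the same groups. Both put the CF pools below the WT pools. For this and the splits of pools by genotype or treatment given below, the share of all genes split alike was not counted. Dbp was 2.34-fold below WT control in CF control (log2 ratio -1.23, SD between the probe sets 0.31), 2.72-fold by 1 probe set and 2.02-fold by the other, and 3.25% of all genes had a lower ratio. Between the treated pools it was 1.76-fold below WT + lubiprostone in CF + lubiprostone (log2 ratio -0.82), and 5.22% of genes lay below it. These 2 genotype comparisons share no array. Dbp was 1.61-fold above CF control in CF + lubiprostone (log2 ratio 0.69), but the probe sets differed, at 2.10-fold and 1.23-fold. In WT mice it was 1.21-fold higher with lubiprostone, with ratios of 1.26 and 1.16 for its probe sets.

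The Period genes encode the inhibitors that close the loop with the CRY proteins. Per1 had signals of 529 in CF + lubiprostone, 311 in CF control, 503 in WT + lubiprostone and 442 in WT control, from 1 probe set. CF control was the lowest and CF + lubiprostone the highest, and the treated WT pool was close to it. Per1 was 1.42-fold below WT control in CF control (log2 ratio -0.51) and 1.70-fold above CF control in CF + lubiprostone (log2 ratio 0.77), a ratio exceeded by few genes, as 94.3% lay below it. Between the treated pools its ratio was 1.05.

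Per2 had 3 kept probe sets of unequal brightness. The brightest had signals of 435 in CF + lubiprostone, 257 in CF control, 525 in WT + lubiprostone and 551 in WT control. In it CF control was 2.14-fold below WT control, and CF + lubiprostone was 1.69-fold above CF control. The others had 156, 151, 223 and 206, and 94.3, 91.1, 102 and 132, in the same groups. These dimmer probe sets put CF control 1.36-fold and 1.45-fold below WT control, the second reaching the median only in WT control, and both treated CF signals were within 1.04-fold of CF control. As a mean of the 3, Per2 was 1.62-fold lower in CF control (log2 ratio -0.69, SD between the probe sets 0.36), and 1.52-fold with signals below the median set to it. Its ratio was 1.22 for CF + lubiprostone over CF control, 0.929 for WT + lubiprostone over WT control and 0.812 for CF + lubiprostone over WT + lubiprostone.

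Per3 was dim and its probe sets went in opposite directions. The brightest had 282 in CF + lubiprostone, 118 in CF control, 426 in WT + lubiprostone and 297 in WT control, 2.51-fold below WT control in CF control and 2.39-fold above CF control in CF + lubiprostone. The next in brightness had 181, 134, 243 and 165 in the same groups. Another had 108.5, 43.6, 173 and 165, and as both CF signals were below their medians it was at least 1.51-fold below WT control in CF control. These 3 had their lowest signal in CF control. The remaining kept one ran the other way, with 132, 87.9, 76.1 and 24.7, and was kept only because CF + lubiprostone reached its array's median. As a mean of the 4, the log2 ratio of CF control over WT control was -0.43 with an SD of 1.65, and it was -1.18 over those probe sets whose signal in CF control or WT control reached the median. With lubiprostone, Per3 was 1.86-fold higher in CF mice (log2 ratio 0.90) and 1.62-fold higher in WT mice (log2 ratio 0.69). With signals below the median set to it these folds were 1.44 and 1.22, since 1 probe set in CF mice and another in WT mice had both signals below the median. The 2 probe sets left out had 52.9, 46.3, 35.2 and 79.8, and 62.2, 10.3, 70.7 and 66.0, in the same groups.

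**Figure D2:**
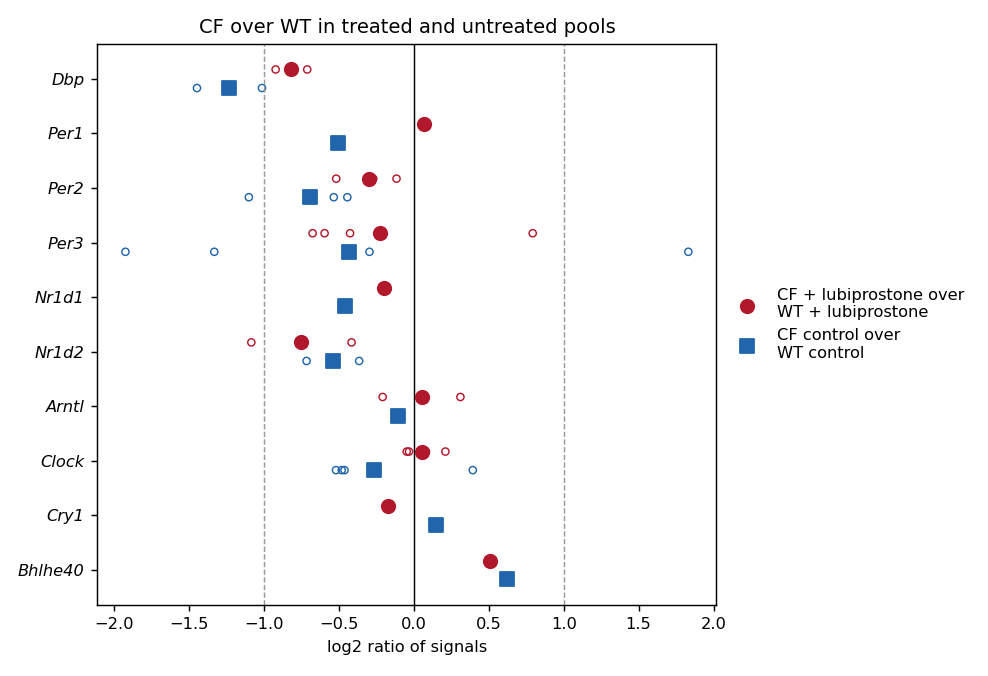
Log2 ratio of CF over WT signals for the 10 clock genes, with red circles for the treated pools (CF + lubiprostone over WT + lubiprostone), blue squares for the untreated pools (CF control over WT control), small open circles for single kept probe sets, and dashed lines at 2-fold. Dbp lies at -0.82 in the treated and -1.23 in the untreated pools, and the open circles of Per3 lie on both sides of 0.

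The REV-ERB genes Nr1d1 and Nr1d2 encode heme-binding nuclear receptors that repress Arntl. Nr1d1 had signals of 651 in CF + lubiprostone, 425.0 in CF control, 749 in WT + lubiprostone and 585 in WT control, from 1 probe set. Both treated pools were above both untreated pools, a split whose share over all genes was not counted. Nr1d1 was 1.38-fold below WT control in CF control (log2 ratio -0.46), and with lubiprostone it was 1.53-fold higher in CF mice and 1.28-fold higher in WT mice (log2 ratios 0.62 and 0.36). Between the treated pools its ratio was 0.870 (log2 ratio -0.20).

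Nr1d2 had 2 probe sets, the brighter one with 3226 in CF + lubiprostone, 2780.3 in CF control, 4300.0 in WT + lubiprostone and 3578 in WT control. The dimmer one had 135, 198, 286 and 324 in the same groups. In both, the CF pools lay below the WT pools, where the share of all genes split alike was not counted. The probe sets disagreed on lubiprostone. The bright one was 1.16-fold above CF control in CF + lubiprostone and the dim one 1.47-fold lower. As a mean, Nr1d2 was 1.45-fold below WT control in CF control (log2 ratio -0.54) and 1.68-fold below WT + lubiprostone in CF + lubiprostone (log2 ratio -0.75).

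Arntl encodes the activator BMAL1. Its brighter probe set had signals of 579.6 in CF + lubiprostone, 464 in CF control, 467 in WT + lubiprostone and 494 in WT control, and the dimmer one had 157, 209, 181 and 227. The range over the 4 arrays, as a mean of both, was 1.15-fold, and its largest log2 ratio was -0.20, for WT + lubiprostone over WT control. For CF + lubiprostone over CF control the probe sets pointed in opposite directions, 1.25-fold higher and 1.33-fold lower. For CF control over WT control, the log2 ratios of Dbp and Arntl were both negative, at -1.23 and -0.11. Relative to Arntl, Dbp thus had a log2 difference of -1.12, most of which was its own ratio. This difference is taken within each array, and no scaling by a single factor alters it.

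Clock, whose protein pairs with BMAL1, had 4 kept probe sets. The brightest had 1437 in CF + lubiprostone, 1701 in CF control, 1241 in WT + lubiprostone and 1295 in WT control. The other 3 had signals between 334 and 653, and all of them were below WT control in CF control, by 1.38-fold to 1.43-fold, while the brightest was 1.31-fold higher. As a mean the log2 ratio was -0.27, with an SD between probe sets of 0.44. For CF + lubiprostone over CF control it was 0.23, with 3 of the 4 probe sets higher.

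Cry1, which encodes the partner of PER in repression, had signals of 369 in CF + lubiprostone, 409 in CF control, 416 in WT + lubiprostone and 369 in WT control. All 4 values lie within 1.13-fold of each other, the smallest range among the members. Bhlhe40 encodes DEC1, a repressor that competes for E-boxes. It had 2214 in CF + lubiprostone, 2809.5 in CF control, 1559 in WT + lubiprostone and 1822 in WT control, from 1 probe set. Both CF pools were above both WT pools, and how many of all genes were split in this way was not counted. Bhlhe40 was 1.54-fold above WT control in CF control (log2 ratio 0.62, with 92.9% of genes below it) and 1.42-fold above WT + lubiprostone in CF + lubiprostone (log2 ratio 0.51). With lubiprostone its ratio was 0.788 in CF mice and 0.856 in WT mice.

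**Figure D3:**
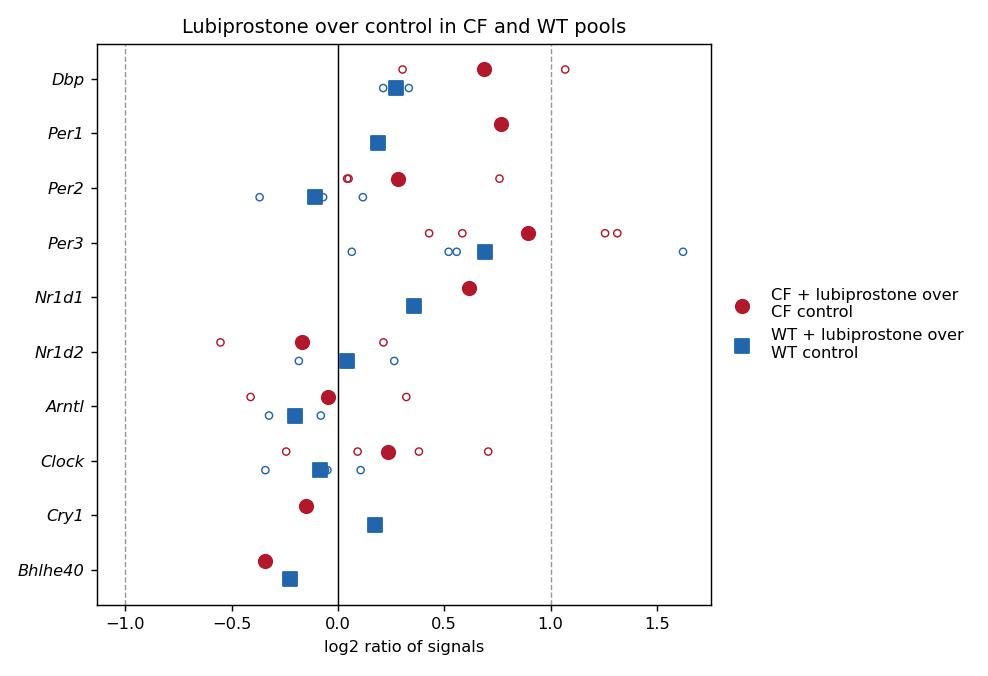
Log2 ratio of lubiprostone over control signals for the 10 clock genes, with red circles for CF pools, blue squares for WT pools, small open circles for single kept probe sets, and dashed lines at 2-fold. Dbp, Per1, Per3 and Nr1d1 lie between 0.62 and 0.90 in CF mice and between 0.19 and 0.69 in WT mice.

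In CF mice, lubiprostone gave a median log2 ratio of 0.26 over the members, against 0.01 over all genes compared. Of the members 6 of 10 were higher, where 51.5% of 11795 genes had a ratio above 1 and 48.5% one below 1. Dbp, Per1, Per3 and Nr1d1 had the highest log2 ratios, at 0.69, 0.77, 0.90 and 0.62, and Bhlhe40 had the lowest. With the arrays scaled to one median these 4 were 0.56, 0.64, 0.77 and 0.49, and Per3 was 0.52 with signals below the median set to it. No member was 2-fold higher or lower, against 3.2% and 2.15% of all genes, and no member was 3-fold higher or lower, against 0.941% and 0.738%. Of the 2-fold differences over all genes 59.8% were higher with lubiprostone, but 43.5% with the arrays scaled to one median, which moved the median of all genes down by 0.13, and 48.0% with quantile normalization. Dbp, the Per genes and Nr1d1 remained higher under both scalings. With probe sets averaged on the linear scale 8 members were higher, as Nr1d2 and Arntl turned, and 7 were higher with the brightest probe set. The filter at the 75th percentile left 6 higher and 1 lower, again with Nr1d2 and Arntl turned. The CF control array stands in this comparison and in that of CF control with WT control, so the ratios of the members in the one are not independent of those in the other.

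In WT mice, lubiprostone gave a median log2 ratio of 0.11 over the members, with 6 of 10 higher, where 49.5% of 11691 genes had a ratio above 1 and 50.5% one below 1. No member was 2-fold higher or lower, against 1.35% and 1.42% of all genes, and none was 3-fold higher or lower, against 0.488% and 0.573%. Per3 had a log2 ratio of 0.69 and Nr1d1 of 0.36, but Per3 came to 0.28, below Nr1d1, with dim signals set to the median or with all its probe sets. The WT and CF lubiprostone comparisons share no array. In both, 4 members were higher, Dbp, Per1, Per3 and Nr1d1, and 2 were lower, Arntl and Bhlhe40, where 29.1% and 28.3% of 11227 genes did so. Counted together, 60.0% of members and 57.5% of genes went the same way. The CF minus WT difference of the lubiprostone log2 ratios had a median of 0.23 over the members and 0.01 over all genes, and it was above 0 for 7 of 10 members and 51.2% of genes. The median over the members was 0.09 with the arrays scaled to one median and 0.13 with quantile normalization. The largest difference was 0.58, for Per1.

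Between the treated pools, 6 of 10 members were below WT + lubiprostone in CF + lubiprostone, with a median log2 ratio of -0.19, where 49.7% of 11792 genes had a ratio below 1 and 50.3% one above 1. No member was 2-fold higher or lower, against 3.22% and 3.41% of all genes, and none 3-fold higher or lower, against 1.27% and 1.25%. Lower in both the treated and the untreated comparison were 5 members, Dbp, Per2, Per3, Nr1d1 and Nr1d2, and Bhlhe40 was higher in both, where 32.6% of 11339 genes were lower in both and 30.8% higher in both. The share that went the same way was 60.0% among the members and 63.4% among these genes.

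**Figure D4:**
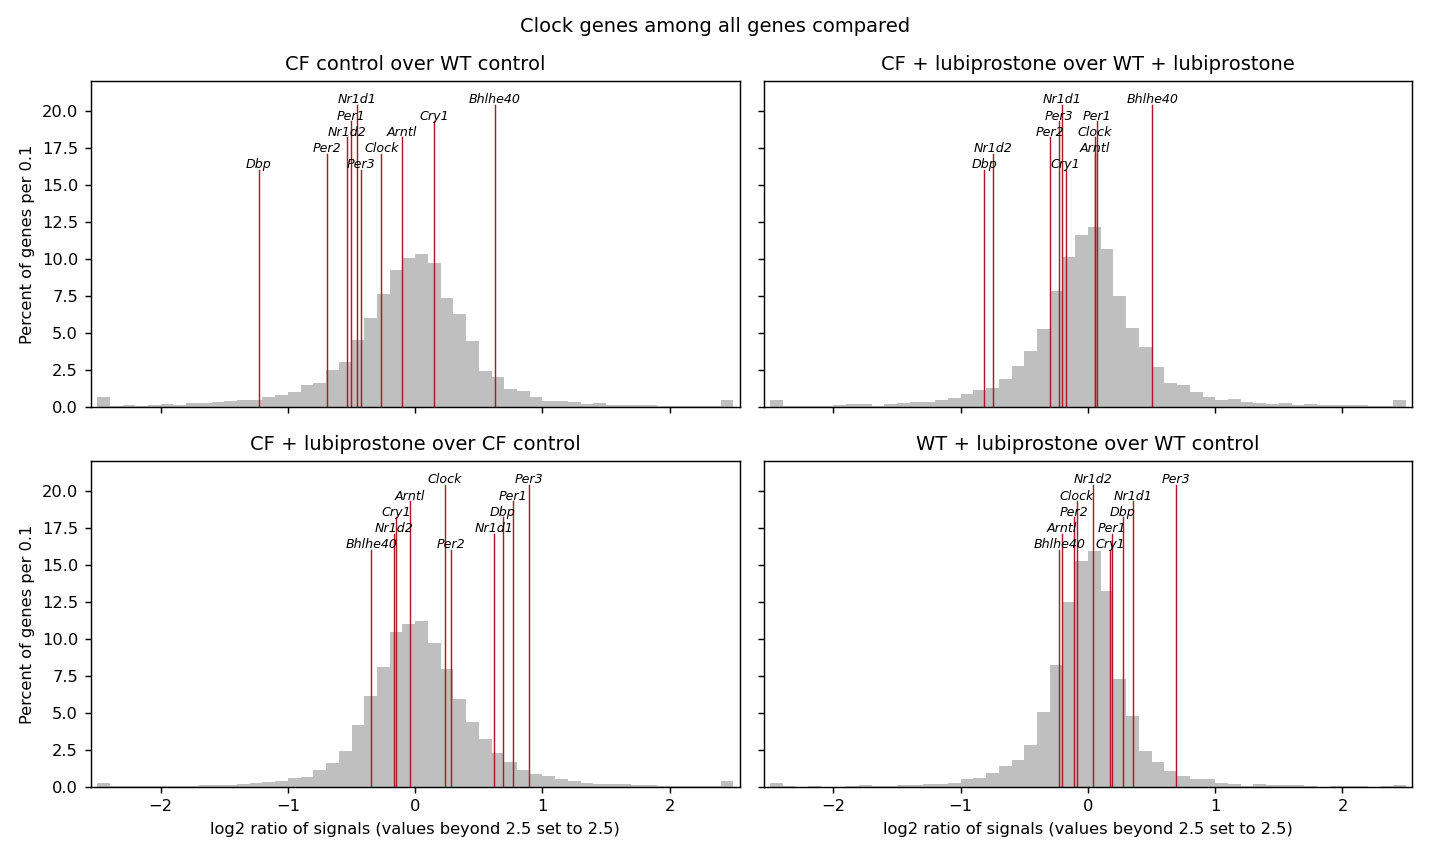
Distribution of log2 ratios over all genes compared (grey bars, percent of genes per 0.1, values beyond 2.5 set to 2.5) with a red line for each clock gene, in the 4 comparisons. In CF control over WT control Dbp lies at -1.23, outside the range of -0.98 to 0.75 between the outer tails (the lowest and highest 5% of genes), and the other members lie inside it.

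Other genes of the clock were followed in a list of 26, of which 20 had a kept probe set. In CF control over WT control 8 were higher and 12 lower, with a median log2 ratio of -0.07. In CF + lubiprostone over CF control 13 were higher and 7 lower (median 0.24), in CF + lubiprostone over WT + lubiprostone 11 were higher and 9 lower (median 0.05), and in WT + lubiprostone over WT control 13 of 19 were higher (median 0.12). Over all genes, ratios above 1 made up 48.2%, 51.5%, 50.3% and 49.5% in these comparisons, in that order. At least 2-fold apart in any comparison were Cry2 and Ciart. In each comparison at most 1 of the listed genes was 2-fold higher and at most 1 was 2-fold lower. Among all genes, 1.35% to 3.22% were that much higher and 1.42% to 4.84% that much lower, depending on the comparison. Cry2, the paralog of Cry1, had signals of 286 in CF + lubiprostone, 125 in CF control, 242 in WT + lubiprostone and 329 in WT control. It was 2.63-fold below WT control in CF control and 2.28-fold above CF control in CF + lubiprostone, with CF control near its array's median. Ciart, which encodes the repressor CHRONO, had 198, 135, 151 and 48.3 in the same groups. As its WT control signal lay below the median, Ciart exceeded WT control at least 1.09-fold in CF control and at least 1.22-fold in WT + lubiprostone.

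By role, the 3 measured genes of further activators and repressors, Cry2 and Ciart among them, had a median log2 ratio of -0.65 for CF control over WT control, with 2 of 3 lower, and of 0.72 for CF + lubiprostone over CF control, with 3 of 3 higher. The 1 measured ROR receptor, Rora, had -0.50 and 0.92 in these comparisons, as means of 5 kept probe sets. For the first, 2 probe sets were higher and 3 lower (SD 0.996), and for the second all 5 were higher. With signals below the median set to it, the log2 ratios were -0.39 and 0.55. Of the PAR bZIP genes related to Dbp and their antagonist, 3 were measured. Their median log2 ratio was -0.60 for CF control over WT control, with 2 of 3 lower. For CF + lubiprostone over CF control it was 0.41, with 2 of 3 higher, which were not the same 2 genes. Tef had -0.60 and 0.41, Hlf -0.91 and -0.11, and the antagonist Nfil3 0.70 and 0.42 in these comparisons. With signals below the median set to it, Tef had -0.37 and 0.23, Hlf -0.91 and -0.05, and Nfil3 0.45 and 0.42. The Hlf probe sets differed for CF control over WT control, at -0.33 and -1.49 (SD 0.82). The 5 measured genes of kinases and ubiquitin ligases, which mark clock proteins for decay, lay between -0.26 and 0.31 for CF control over WT control, with 2 higher and 3 lower, and 4 of the 5 were higher with lubiprostone in CF mice. The 3 genes listed as partners of clock proteins had a median of -0.27 with lubiprostone in CF mice, 2 of them near this value and the other close to 0, and 2 of the 3 were higher in untreated CF mice. Of 5 measured output genes, 2 were higher and 3 lower for CF control over WT control (median -0.03, range -0.63 to 0.30). For CF + lubiprostone over CF control, 3 were higher and 2 lower (median 0.16, range -0.13 to 0.92). The lubiprostone values in CF mice share the CF control array with the untreated genotype values.

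**Figure D5:**
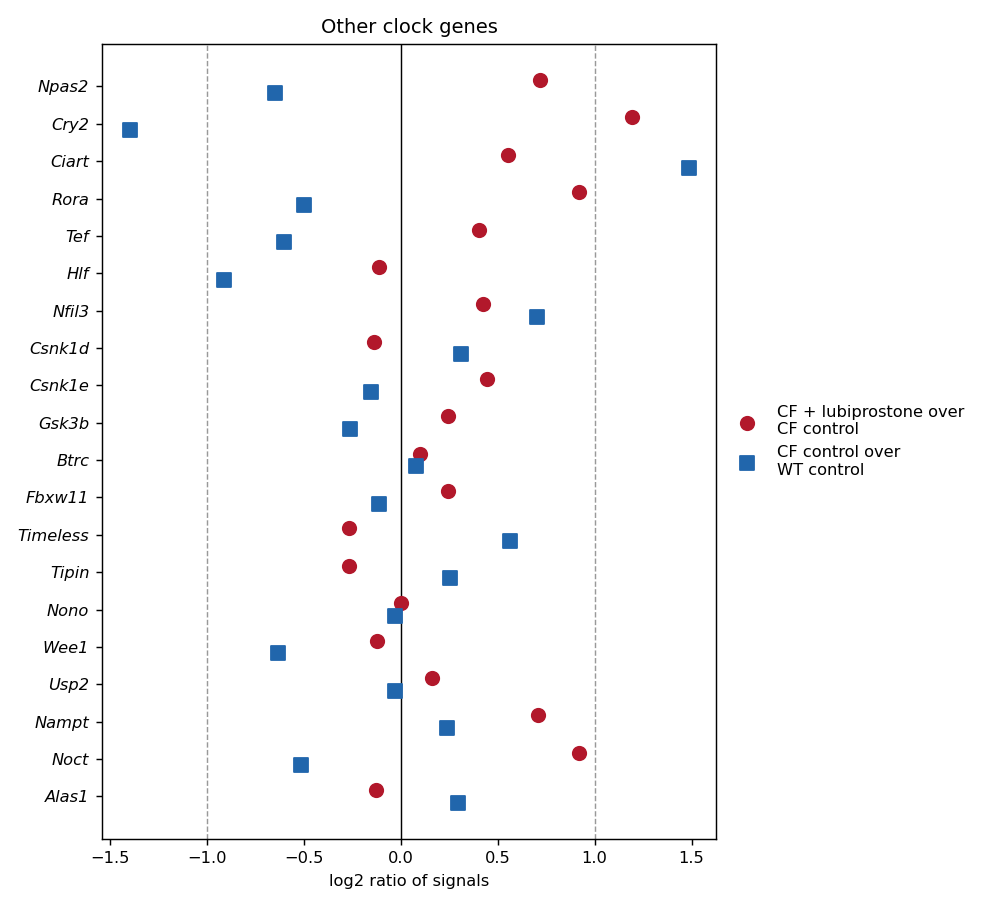
Log2 ratios of the 20 other clock genes with a kept probe set, with red circles for CF + lubiprostone over CF control, blue squares for CF control over WT control, and dashed lines at 2-fold. The comparisons share the CF control array. Cry2 lies at 1.19 and -1.40, and the square of Ciart at 1.48 rests on a WT control signal below its array's median.

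The genes nearest to Dbp over the 4 arrays, by the distance between log2 signals centred on each gene's mean, were sought among 5955 brighter genes. They were Adh1, an alcohol dehydrogenase gene, at a distance of 0.13, Mfsd4b2 at 0.16, the retinol dehydrogenase gene Rdh9 at 0.17, and Abca8a, a gene of the ABC transporter family, and Tmigd1, both at 0.18. Adh1 had signals of 11052 in CF + lubiprostone, 7619 in CF control, 19173 in WT + lubiprostone and 16954 in WT control. The genes nearest to Arntl were Snrnp200, Scnm1, Eps15, Senp6 and Hgs, at distances of 0.03 to 0.05. Like the mean of the 2 Arntl probe sets they were almost flat. Those probe sets went in opposite directions for CF + lubiprostone over CF control (SD 0.52), a spread larger than these distances.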

How the data were processed

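For each group, the authors combined RNA of its mice in equal parts and ran 1 Affymetrix mouse expression array. The deposited values are intensities, made by the authors with GCOS and the MAS5 algorithm per the labels, on a linear scale and scaled per array, with no detection calls. Probe sets were named from the platform annotation. Of 45101 probe sets, 34958 had 1 gene symbol, 932 several and 9211 none, and symbols were updated by gene identifier through RefSeq (GRCm38.p6). No clock probe set carried several symbols. A probe set was kept if any of its 4 signals reached the median of its array (21756 probe sets, 12259 genes), and a gene was counted in a comparison when 1 of the 2 arrays compared had such a probe set. Log2 ratios of a gene's kept probe sets were averaged. Counts used a fold of 2 and the study's threshold of 3. A fold given as "at least" was computed with each dim signal replaced by the median of its array. For the marker lists the brightest probe set of each gene was used.

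No test was run, since each group has 1 array, and the number of arrays limits the precision. The members and lists were chosen with earlier results of these data known. The text names all 10 members with each probe set, those of 26 other clock genes that were at least 2-fold apart in a comparison, and the 5 genes nearest to Dbp and to Arntl by Euclidean distance. Rora, Tef, Hlf and Nfil3 are named as well, with the values of their roles. The alternatives were 2 further scalings (one median, quantile), leaving out the filter, filtering at the 75th percentile, dim signals set to the median, an offset of 50, the brightest probe set, averaging on the linear scale and, chosen after seeing the data, probe sets at or above the median on 1 of the arrays compared. The steps were tested on simulated data. Python 3.11 was used with numpy, pandas and matplotlib. The promoter windows came from RefSeq, which was matched by symbol.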

Additional observations from a re-analysis of the deposited data

Results flagged for a closer look

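For 4 clock genes the lubiprostone ratio pointed in opposite directions in CF and WT mice. With 1 array per group the difference was not tested. The CF minus WT difference of the log2 ratios was 0.39 for Per2 (0.28 in CF, -0.11 in WT), 0.32 for Clock (0.23 in CF, -0.09 in WT), -0.33 for Cry1 (-0.15 in CF, 0.17 in WT) and -0.21 for Nr1d2 (-0.17 in CF, 0.04 in WT). For Nr1d2 and Clock the directions were no longer opposite with the brightest probe set, which gave 0.21 in CF and 0.26 in WT for Nr1d2, and -0.24 in CF and -0.06 in WT for Clock. The same held for Nr1d2 with the filter at the 75th percentile and on the linear scale, and its probe sets disagreed in CF mice (SD 0.54).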

How the results depend on the processing

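Of 469 values and counts recomputed under 9 other settings, 433 stayed within the spread between probe sets, or within 1.5 times for a count, and 36 did not. Per1, Nr1d1, Cry1 and Bhlhe40 had 1 probe set each. The settings that choose or average probe sets could not change their ratios, which are counted among the 433. Among single genes, leaving out the filter could change only Per3. Raising dim signals to the median, or keeping probe sets by the arrays compared, could change only Per2 and Per3. The unchanged ratios of the other members under these settings are also counted among the 433. The number of members at least 2-fold below WT control in CF control was 1 as reported, 2 with the filter at the 75th percentile (Dbp and Per2), 3 with the brightest probe set (Dbp, Per2 and Per3) and 2 with probe sets at or above the median on the arrays compared (Dbp and Per3). The number at least 2-fold above CF control in CF + lubiprostone was 0 as reported, 1 without a filter (Per3) and 2 with the brightest probe set (Dbp and Per3). With the brightest probe set, Clock turned to a log2 ratio of 0.39 for the untreated genotype comparison and -0.24 for lubiprostone in CF mice, where Arntl turned to 0.32 and Nr1d2 to 0.21. Over all genes, the counts at least 2-fold higher and lower were 331 and 571 (CF control over WT control), 158 and 166 (WT + lubiprostone over WT control), 378 and 254 (CF + lubiprostone over CF control) and 380 and 402 (CF + lubiprostone over WT + lubiprostone). In that order they were 1426 and 2351, 1509 and 1551, 2130 and 1415, and 1701 and 1851 without a filter, 146 and 228, 20 and 27, 104 and 74, and 158 and 164 with the filter at the 75th percentile, 174 and 301, 30 and 40, 148 and 101, and 188 and 200 with dim signals raised to the median, and 203 and 323, 70 and 73, 167 and 118, and 241 and 234 with the offset. With arrays scaled to one median they were 502 and 419 in the first. No paired analysis was possible because each group has 1 array.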
